A study of Homo sapiens with 6 samples.

Results

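The collagen chain genes of A2780, a human ovarian cancer cell line in long use, were examined with and without a hairpin that targets the spliceosome protein USP39. Genes were chosen by their symbol (COL, a number, A, a number) and by having a row in the count table. By this rule 40 genes, held in 45 transcript rows, were found among 16571 gene symbols and 21368 rows. The rule used no difference between groups, but COL12A1 and COL1A2 had been picked from earlier results of these data, so their differences are given as a description, without a p-value, and support nothing. There were 3 libraries of cells with pGIPZ-NC, a lentiviral vector without that hairpin, and 3 of cells with shUSP39. Both groups were A2780 cells infected with lentivirus and carried no other labelled treatment. According to the study's methods, hairpins were cloned into pGIPZ and infected cells were selected with puromycin as stable lines. The study describes the libraries as biologically independent samples. Which hairpin the shUSP39 libraries carried was not stated, nor whether the lines were clones or were infected separately, so p-values measure the spread between these libraries.

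Collagens are the main structural proteins of the extracellular matrix. Their chains carry long stretches with a glycine in each repeat of 3 residues, which lets chains of the same or different genes wind into a helix. Fibrillar collagens (types I, III, V and XI among them) form the cables of connective tissue, and FACIT collagens sit on the surface of these cables. Network collagens such as type IV form the sheet of basement membranes, and type VI chains form beaded filaments around cells. Transmembrane collagens hold cells to the matrix, and multiplexins lie in basement membranes. In ovarian tumours much of the collagen is known to come from stromal fibroblasts, but tumour cell lines also transcribe collagen genes.

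The repeat that makes a chain a collagen is printed here for 4 genes the results turn on, as the first coding exon of 54 bases in each gene that holds a glycine codon at all of its 6 repeats, with those codons in capitals. The exons were read from the genome build GRCh37, on the coding strand. They lie at chr6:75813473-75813526 (COL12A1, minus strand, coding exon 54 of 65), chr7:94034005-94034058 (COL1A2, plus, 8 of 52), chr2:189852807-189852860 (COL3A1, plus, 6 of 51) and chr2:189962003-189962056 (COL5A2, minus, 6 of 54).
COL12A1: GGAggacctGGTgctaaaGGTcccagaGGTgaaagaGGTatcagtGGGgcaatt
COL1A2: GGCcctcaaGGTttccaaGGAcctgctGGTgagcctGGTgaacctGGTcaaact
COL3A1: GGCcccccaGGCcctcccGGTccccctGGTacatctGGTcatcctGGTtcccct
COL5A2: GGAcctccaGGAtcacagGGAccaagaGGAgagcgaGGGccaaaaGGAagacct

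The genes differed in how long this repeat runs without a break. It ran for 339 repeats in COL1A2, 343 in COL3A1 and 339 in COL5A2, the length of a fibrillar chain. In COL12A1, a FACIT chain of 66 exons, the longest run was 32 repeats, in COL6A1 and COL6A2 it was 87, and in COL17A1 it was 56. Collagen genes had a median of 49.5 exons, against 8 over all genes of the table with a coding model, and 20 of the 40 had over 50 exons.

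The table held between 28294819 and 32939264 counts per library. A gene was detected with at least 1 count for 12662 to 12809 symbols in the pGIPZ-NC libraries and for 12819, 15446 and 14890 in shUSP39 replicates 1, 2 and 3. For the collagens, the number of genes with a count was 32, 31 and 29 in pGIPZ-NC and 32, 37 and 34 in shUSP39. Depth was similar between groups, and shUSP39 replicates 2 and 3 stood apart in the number of genes with few counts. USP39 was not analysed here, so the targeted gene gave no check of the labels. COL8A1, COL21A1, COL4A6 and COL6A5 were not analysed here.

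The filter on low counts was passed by 24 of the 40 collagen genes, which were tested in 1 edgeR fit over 10695 genes. A gene could pass the filter through the libraries of 1 group, so counts over the tested genes describe them and are no support. COL12A1 and COL1A2 were left out of the counts that follow, which cover the other 22. At a Benjamini-Hochberg adjusted p under 0.05, 5 of these were higher in shUSP39, where 16.1% of all tested genes were, and 5 were lower, where 17.5% of all tested genes were. The other 12 did not pass. Over all tested genes the split was 1726 higher and 1872 lower, and it was 2077 higher and 1501 lower under upper-quartile scaling, which left the collagen split at 5 and 5. A gene was called when its difference also went beyond 2-fold. COL17A1, COL6A1 and COL6A2 were called higher, against 4.53% of all tested genes, and COL5A1 and COL14A1 were called lower, against 2.28%. The libraries of the groups did not overlap in 5 collagen genes that were higher (21.7% of all tested genes) and in 4 that were lower (22.5%). The median log2 fold change was 0.13 over the 22 collagens and 0.0085 over all tested genes.

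**Figure D1:**
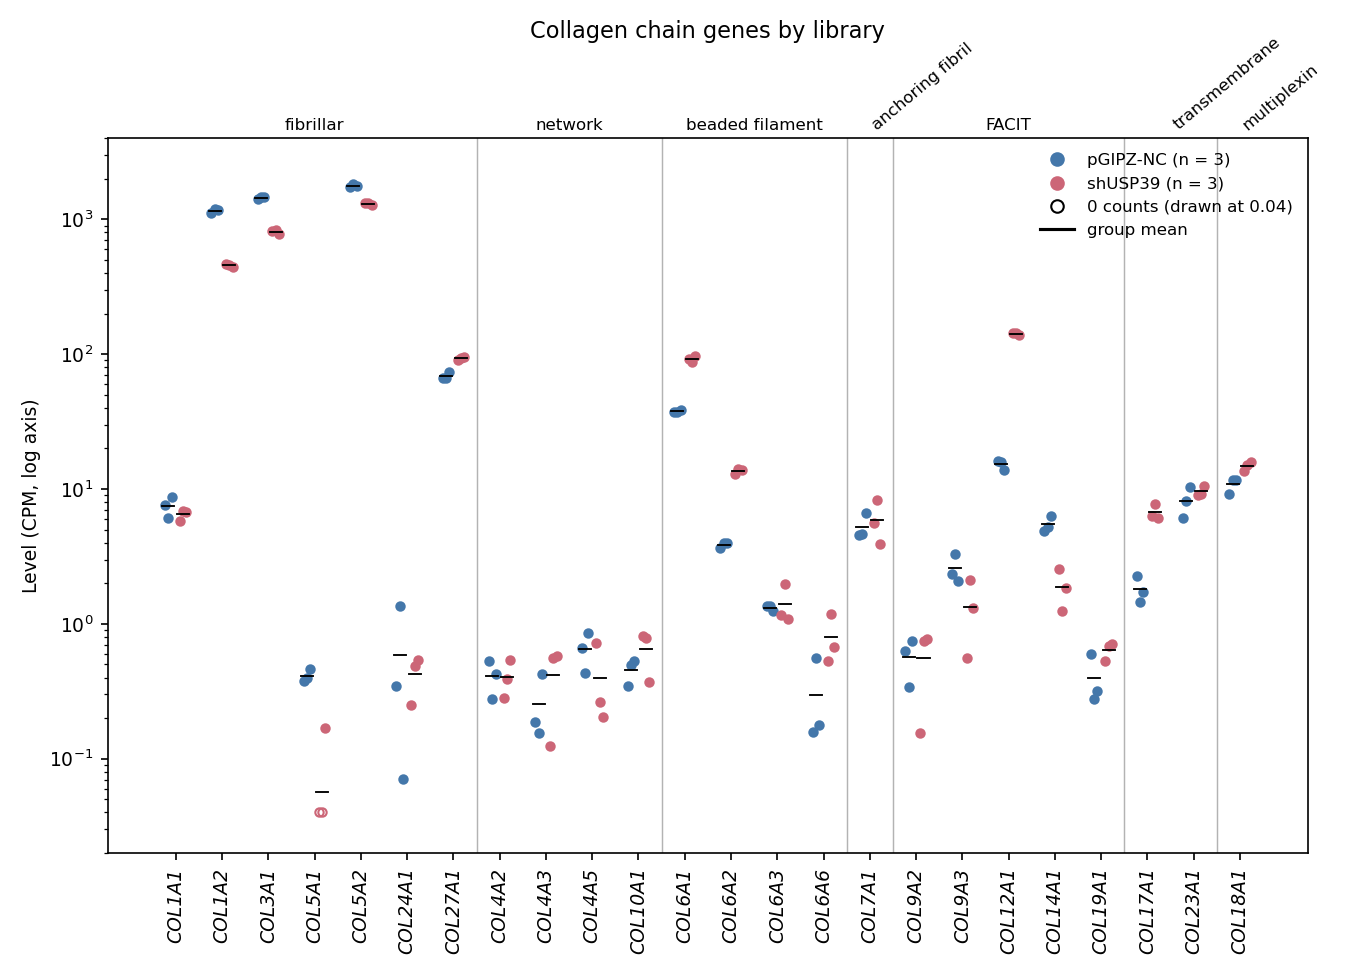
Level of each tested collagen gene in each library, in CPM (counts per 1000000 of a library's scaled total) on a log axis, ordered by class, with 3 pGIPZ-NC and 3 shUSP39 libraries per gene and a line at each group mean. COL5A2, COL3A1 and COL1A2 lay highest in both groups, and COL12A1 moved from 15.3 to 142 CPM, while libraries overlapped in the 4 network genes, all below 1 CPM.

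Fibrillar chains made up nearly all collagen counts. Summed over the class, CPM came to 4463 ± 102 in pGIPZ-NC and to 2675 ± 52.7 with shUSP39 (SD, n = 3), a ratio of 0.599. All 40 collagens together summed to 4560 ± 106 and 2971 ± 53.6 CPM. Both sums include COL1A2, picked from earlier results, which went from a mean of 1160 to 459 CPM. The sum of all 40 also includes COL12A1. Because these are bulk libraries, fewer cells with a transcript and less of it per cell cannot be told apart. Of the 6 fibrillar genes tested beside COL1A2, 3 were lower, 1 was higher and 2 did not pass.

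COL1A2 encodes the second chain of type I collagen, the main collagen of skin, bone and tendon (chr7:94024207-94060539, plus strand, GRCh37). The pGIPZ-NC libraries held 1118, 1185 and 1175 CPM of it and the shUSP39 libraries 468, 462 and 446 CPM. All shUSP39 libraries lay far below all controls, and the lowest of the 6 libraries still had 13203 counts. The level was 2.53 times as high in pGIPZ-NC (log2 fold change -1.34, SE 0.033, edgeR). Under the 14 alternatives it stayed between -1.37 and -1.29.

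COL3A1, the chain of type III collagen of vessels and soft tissue, was next in size of fall among the abundant genes (chr2:189839099-189877472, plus strand). It stood at 1423, 1474 and 1462 CPM in pGIPZ-NC and at 823, 832 and 782 CPM in shUSP39. The groups were well apart (-0.84, SE 0.031, adjusted p = 1.5e-17). COL5A2, a chain of type V collagen, which helps to start fibrils of types I and III, lies next to it on the opposite strand at 19152 bases (chr2:189896624-190090038). Its levels were 1734, 1817 and 1769 CPM in pGIPZ-NC and 1313, 1313 and 1282 CPM in shUSP39. The fall was smaller, at -0.44 (SE 0.029, adjusted p = 1.75e-12), and the libraries again did not overlap.

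The values of these abundant chains fell by unequal amounts, which ratios within each library describe without any scaling between libraries. The ratio of COL1A2 to COL3A1 counts was 0.786 to 0.804 in pGIPZ-NC and 0.555 to 0.571 in shUSP39. The ratio of COL1A2 to COL5A2 went from between 0.645 and 0.664 to between 0.348 and 0.356, and that of COL3A1 to COL5A2 from between 0.811 and 0.827 to between 0.610 and 0.634. These pairs were chosen after their values were seen, and COL1A2 was picked from earlier results, so the ratios with COL1A2 support nothing. Per kilobase of transcript, COL3A1 (265 CPM per kb) and COL5A2 (260) had the higher levels in pGIPZ-NC and COL1A2 (229) the next. In shUSP39 the order was COL5A2 (191), COL3A1 (148) and COL1A2 (90.4).

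**Figure D2:**
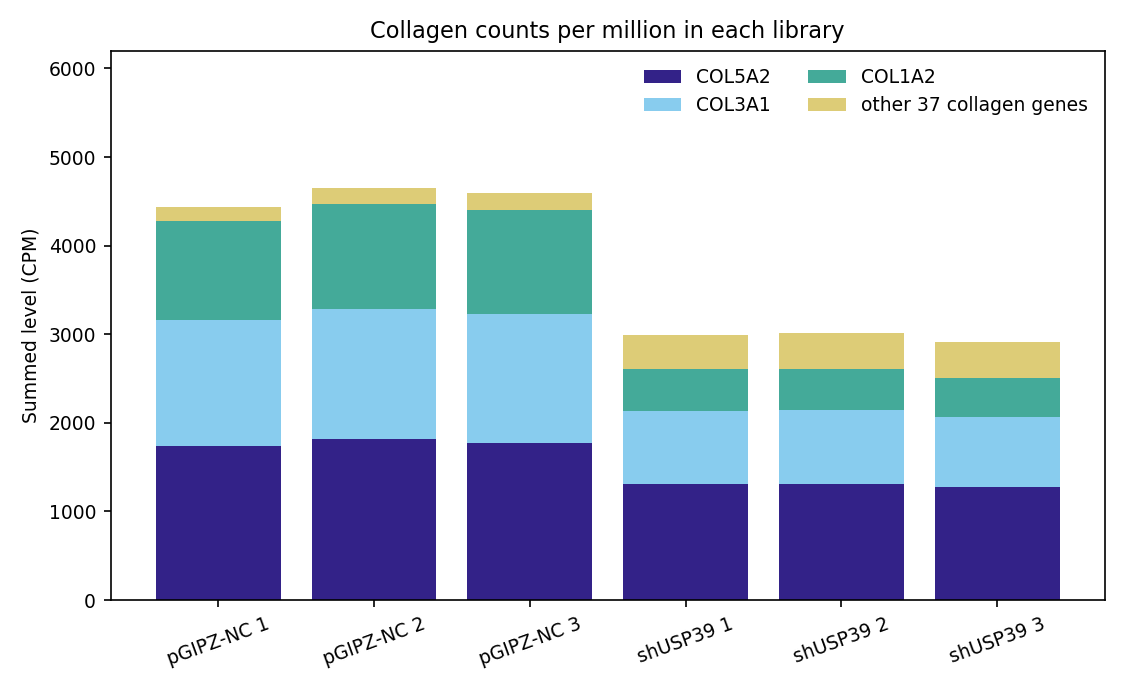
Summed level of the 40 collagen genes in each library, in CPM from 0, stacked as COL5A2, COL3A1, COL1A2 and the other 37 genes. The 3 named genes held 96.2% of collagen counts in pGIPZ-NC and 86.6% in shUSP39, and the other genes took a larger share in each shUSP39 library.

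The partner chains of types I and V were far less abundant than COL1A2 and COL5A2. COL1A1, the other chain of type I collagen, had 245, 198 and 245 counts in pGIPZ-NC and 187, 212 and 201 in shUSP39. Its level per kilobase was 1.27 CPM in pGIPZ-NC, against 229 for COL1A2. The difference between groups did not pass (log2 fold change -0.20, SE 0.16, adjusted p = 0.380), and the ratio of COL1A2 to COL1A1 counts was 135 to 194 in pGIPZ-NC and 65.7 to 80.0 in shUSP39. COL5A1, the usual partner of COL5A2, had 12, 13 and 13 counts in pGIPZ-NC and 0, 0 and 5 in shUSP39. Of its 2 rows, 1 had 12, 6 and 13 counts in pGIPZ-NC and 0 in all shUSP39 libraries. The other row had 0, 7 and 0 counts against 0, 0 and 5 and did not share this fall. Summed over both rows, COL5A1 was called lower at -2.82 (SE 0.93, adjusted p = 0.020), a value that rests on 1 shUSP39 library. It passed the filter on low counts through pGIPZ-NC, so the call is no support. Refits with at least 10 counts in every library or with the highest transcript left it out. The call was lost without the filter and without each library in turn except shUSP39 replicate 3, with adjusted p between 0.0547 and 0.104. Without shUSP39 replicate 3 the fitted value was -6.69, and both remaining libraries were then at 0. Each of these 2 genes is held by all of its current RefSeq messenger RNAs, 1 row for COL1A1 and 2 for COL5A1, and reads shared by both COL5A1 rows may have been left out.

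COL27A1, a fibrillar chain best known from cartilage, was the fibrillar gene that rose. Its levels were 66.8, 66.4 and 74.4 CPM in pGIPZ-NC and 91.0, 93.8 and 95.9 CPM in shUSP39. The groups did not overlap and the difference was under 2-fold (0.44, SE 0.058, adjusted p = 1.08e-06). COL24A1, a fibrillar chain of bone and cornea, ranged from 2 to 44 counts within pGIPZ-NC and from 8 to 16 in shUSP39. It did not pass (-0.49, SE 0.69, adjusted p = 0.638).

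FACIT chains differed in both directions. COL12A1 had higher levels in shUSP39, and of the 4 others tested COL14A1 and COL9A3 were lower and 2 did not pass. The class summed to 24.6 ± 1.10 CPM in pGIPZ-NC and 148 ± 3.62 with shUSP39, nearly all of the latter from COL12A1. COL12A1, the chain of type XII collagen, which binds to type I fibrils in dense connective tissue, lies on the minus strand (chr6:75794042-75915983). It had 516, 519 and 390 counts in pGIPZ-NC and 4627, 4422 and 4079 in shUSP39, or 16.2, 16.0 and 13.8 against 145, 144 and 138 CPM. Every shUSP39 library stood far above every control, at 9.27-fold (log2 fold change 3.21, SE 0.067). The value stayed between 3.14 and 3.26 under the 14 alternatives. Its share of collagen counts went from 0.336% ± 0.0323 to 4.79% ± 0.0475 (SD, n = 3).

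Seen within libraries, COL1A2 counts were 69.1 to 85.1 times those of COL12A1 in pGIPZ-NC and 3.20 to 3.24 times in shUSP39. COL12A1 had 1 row in the table and has 6 RefSeq messenger RNAs, so the counts may leave out reads of the others. COL14A1, the chain of type XIV collagen, a close relative of COL12A1 that also binds fibrils, moved the other way. Its levels were 4.89, 5.26 and 6.34 CPM in pGIPZ-NC and 2.56, 1.24 and 1.86 CPM in shUSP39. No libraries overlapped (-1.54, SE 0.24, adjusted p = 9.56e-06), and it stayed called under the 14 alternatives. The ratio of COL12A1 to COL14A1 counts was 2.18 to 3.31 in pGIPZ-NC and 56.4 to 116 in shUSP39. COL14A1 also had 1 row, of 13 RefSeq messenger RNAs.

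Type IX collagen, the FACIT of cartilage, was represented by COL9A3 and COL9A2. COL9A3 had 75, 107 and 59 counts in pGIPZ-NC and 18, 65 and 39 in shUSP39, so its libraries overlapped. It passed at -0.95 (SE 0.35, adjusted p = 0.0356), but leaving out any of pGIPZ-NC replicates 1 and 2 and shUSP39 replicates 1 and 3 ended this (adjusted p 0.0566 to 0.199). With shUSP39 replicate 1 as the only library of its group the value was -2.19. COL9A2 (20, 11 and 21 counts against 5, 23 and 23) and COL19A1, a rare FACIT of basement membrane zones (19, 9 and 9 against 17, 21 and 21), did not pass, with adjusted p of 0.984 and 0.376.

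**Figure D3:**
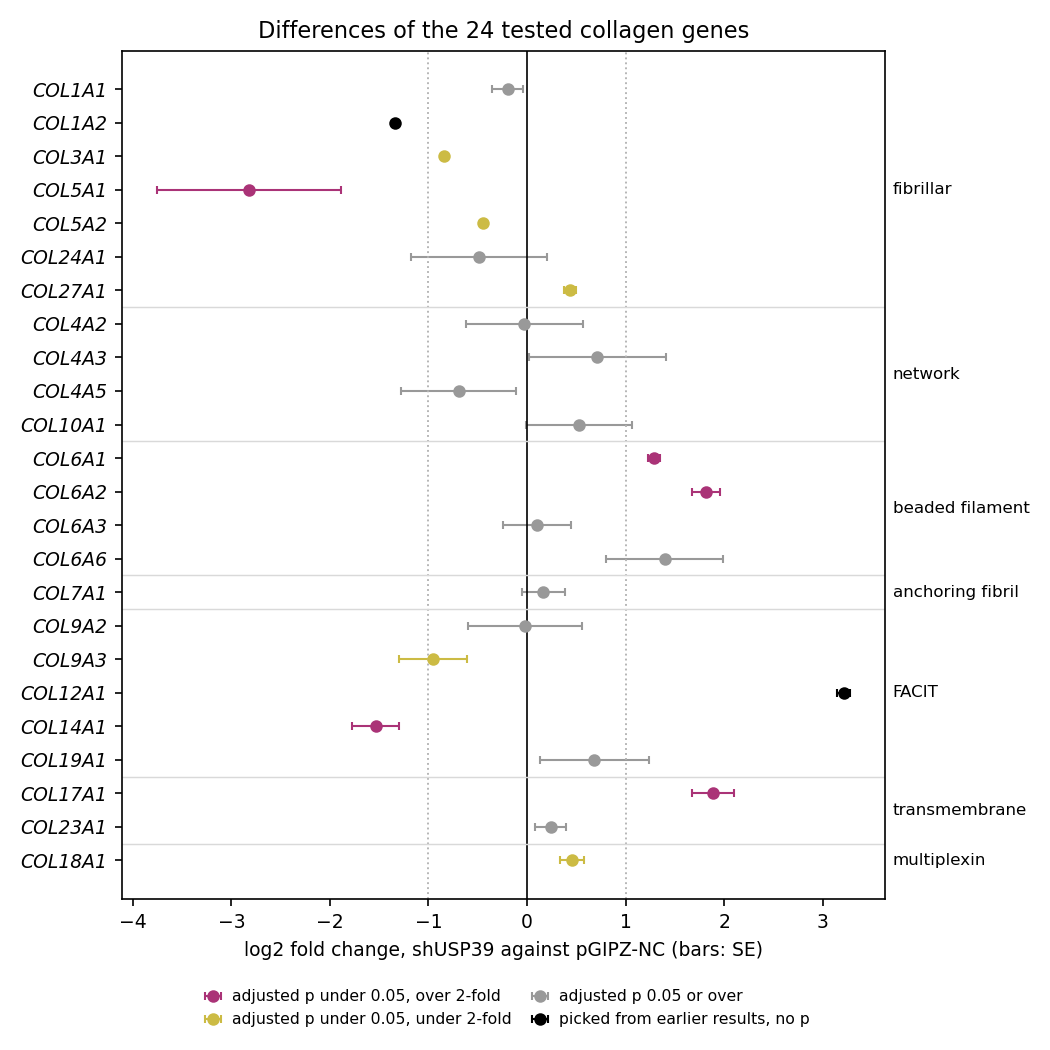
Log2 fold change (shUSP39 against pGIPZ-NC) of the 24 tested collagen genes with its SE as a bar, grouped by class, with dotted lines at 2-fold. COL12A1 and COL1A2, picked from earlier results, are drawn in black. COL12A1 lies farthest right at 3.21, the 4 network genes have wide bars on either side of 0, and COL27A1 is the fibrillar gene to the right of 0.

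Type VI chains, which form beaded filaments, were higher in both of their more abundant members. COL6A1 and COL6A2 lie on the same strand of chromosome 21, 93062 bases apart (chr21:47401684-47424964 and chr21:47518026-47552762). COL6A1 stood at 37, 37.5 and 38.5 CPM in pGIPZ-NC and at 91.6, 87.6 and 97.2 CPM in shUSP39. The groups were far apart, at 2.45-fold (1.29, SE 0.062, adjusted p = 3.82e-15). COL6A2 stood at 3.67, 4.0 and 3.97 CPM in pGIPZ-NC and at 12.8, 14.2 and 14.0 CPM in shUSP39, without overlap. Its rise was 3.52-fold (1.82, SE 0.14, adjusted p = 6.68e-11). Both stayed called under the 14 alternatives. The ratio of COL6A1 to COL6A2 counts went from between 9.38 and 10.1 to between 6.18 and 7.13, so COL6A2 rose more within each shUSP39 library.

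The other type VI chains had few counts. COL6A3, the large partner chain of COL6A1 and COL6A2, had 43, 44 and 35 counts in pGIPZ-NC and 37, 61 and 32 in shUSP39. It did not pass (0.10, SE 0.35, adjusted p = 0.861), and it had 1 row of 5 RefSeq messenger RNAs. COL6A6 had 5, 18 and 5 counts against 17, 36 and 20. Its libraries overlapped through pGIPZ-NC replicate 2, and it did not pass (1.40, SE 0.59, adjusted p = 0.0732). Without pGIPZ-NC replicate 2 it was called, at 2.22 (adjusted p = 0.0279). COL6A6 passed the filter on low counts through shUSP39, so this call is no support.

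COL17A1 encodes the transmembrane collagen of hemidesmosomes, the points where epithelial cells hold to the basement membrane (chr10:105791044-105845638, minus strand). It had 72, 47 and 49 counts in pGIPZ-NC and 201, 239 and 179 in shUSP39, or 2.26, 1.45 and 1.74 against 6.28, 7.81 and 6.05 CPM. All shUSP39 libraries lay above all controls, at 3.70-fold (1.89, SE 0.21, adjusted p = 6.93e-08). It was called under all 14 alternatives. COL23A1, the other transmembrane collagen tested, was at 6.12, 8.10 and 10.3 CPM and at 9.09, 9.21 and 10.6 CPM, and it did not pass (0.24, SE 0.16, adjusted p = 0.273).

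The multiplexin COL18A1, whose end fragment is endostatin, rose by less than 2-fold. It was at 9.25, 11.6 and 11.8 CPM in pGIPZ-NC and at 13.6, 15.1 and 16.0 CPM in shUSP39, with no overlap (0.45, SE 0.12, adjusted p = 0.00470). With shUSP39 replicate 1 as the only library of its group it no longer passed (0.32, adjusted p = 0.222). COL7A1, the chain of anchoring fibrils, had 145, 151 and 187 counts against 178, 252 and 115, and it did not pass (0.17, SE 0.22, adjusted p = 0.617).

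Network chains were near the limit of detection at this depth. COL4A2 (17, 9 and 12 counts against 9, 12 and 16), COL4A3 (6, 5 and 12 against 4, 17 and 17), COL4A5 (21, 14 and 24 against 23, 8 and 6) and COL10A1 (11, 16 and 15 against 26, 24 and 11) did not pass. Their adjusted p lay between 0.401 and 0.980, and the libraries of the groups overlapped in each. COL4A2 to COL4A5 are chains of basement membranes, and COL10A1 is that of growth plate cartilage. The class summed to 2.17 ± 0.366 and 2.94 ± 1.33 CPM. COL4A1 and COL4A2 overlap in the annotation on opposite strands, and use of strand in counting was not stated, so reads of the overlap cannot be told apart.

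Below the filter lay 16 collagen genes, of which 7 reached at least 10 counts in a library. COL5A3 had 1, 0 and 0 counts in pGIPZ-NC and 5, 17 and 8 in shUSP39, and COL4A1 had 7, 5 and 1 against 2, 42 and 6. COL4A4 had 8, 9 and 7 against 3, 33 and 11, and COL16A1 had 7, 8 and 1 against 1, 25 and 25. In these genes the higher counts were in shUSP39 replicates 2 or 3. COL22A1 had 0 in all pGIPZ-NC libraries and 0, 22 and 8 in shUSP39, COL15A1 had 1, 1 and 0 against 0, 11 and 13, and COL28A1 had 0 in pGIPZ-NC and 1, 13 and 4 in shUSP39. A count of 0 allows up to 3 counts in a library.

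The 16 genes together had 33, 35 and 11 counts in pGIPZ-NC and 17, 180 and 92 in shUSP39 replicates 1, 2 and 3. All 5876 genes below the filter were also highest in shUSP39 replicates 2 and 3, with 9715, 9593 and 8664 counts in pGIPZ-NC and 10647, 24463 and 18067 in shUSP39. There shUSP39 replicate 1 lay above every control, while for the collagens it lay among the controls. What made the shUSP39 libraries differ was not tested. When no filter was applied, COL5A3, COL22A1 and COL28A1 were called higher, and without shUSP39 replicate 1 COL15A1 and COL16A1 were. In these refits 940 of 16571 and 836 of 11063 genes were called, in either direction. Most counts of these collagens came from shUSP39 replicates 2 and 3, so the calls describe them and are no support. The other 9 genes (COL2A1, COL11A1, COL11A2, COL8A2, COL9A1, COL20A1, COL13A1, COL25A1 and COL26A1) stayed under 10 counts in every library.

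**Figure D4:**
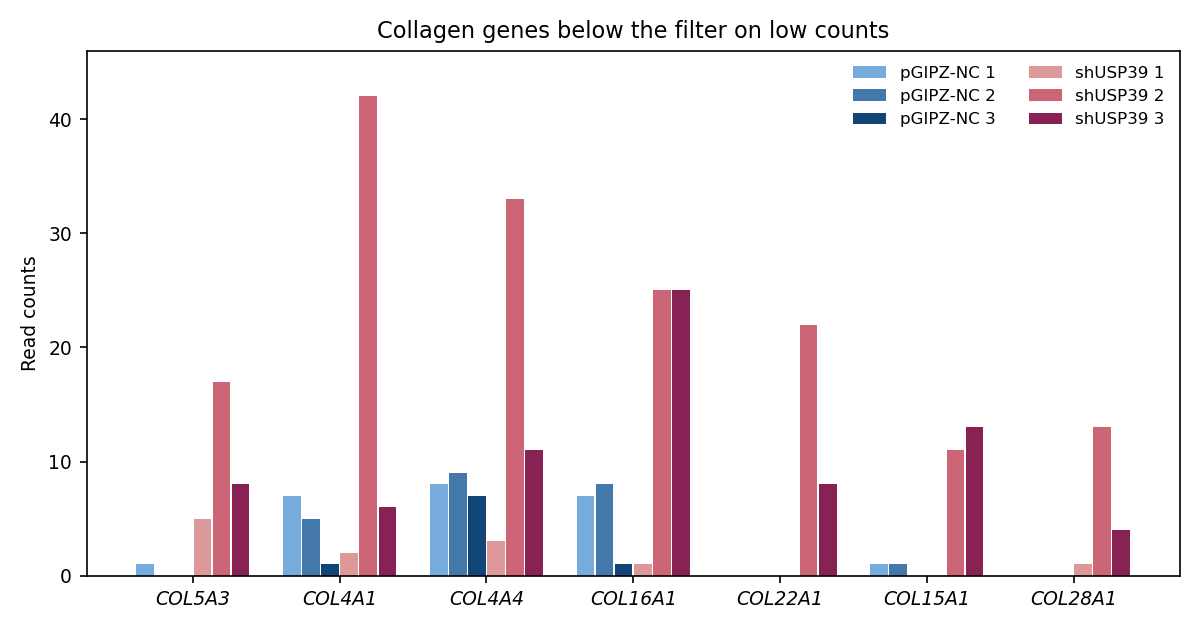
Read counts, from 0, of the 7 collagen genes below the filter that reached 10 counts in a library, with 1 bar per library. The tall bars belong to shUSP39 replicates 2 and 3, up to 42 counts of COL4A1, while shUSP39 replicate 1 has between 0 and 5 counts.

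Chosen after their values were seen, 3 genes more than 2-fold higher in shUSP39 lie on different chromosomes. The 250 bases before the start of each are shown next. They come from RefSeq (GRCh38.p14), on the strand of the gene, at chr6:75206054-75206303 (COL12A1), chr10:104085881-104086130 (COL17A1) and chr21:46097862-46098111 (COL6A2). Capitals mark matches to 5 motifs, searched as TATAAA (the TATA box, gene strand only), CCAAT (a box named by its letters), GGGCGG (the GC box), TGANTCA (AP-1) and the core of the interferon-stimulated response element, the last 4 on both strands.
COL12A1: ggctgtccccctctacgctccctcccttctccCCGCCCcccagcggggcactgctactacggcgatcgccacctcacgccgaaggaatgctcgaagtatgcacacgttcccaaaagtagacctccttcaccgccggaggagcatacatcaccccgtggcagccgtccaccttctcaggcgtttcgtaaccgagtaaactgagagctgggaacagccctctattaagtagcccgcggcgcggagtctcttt
COL17A1: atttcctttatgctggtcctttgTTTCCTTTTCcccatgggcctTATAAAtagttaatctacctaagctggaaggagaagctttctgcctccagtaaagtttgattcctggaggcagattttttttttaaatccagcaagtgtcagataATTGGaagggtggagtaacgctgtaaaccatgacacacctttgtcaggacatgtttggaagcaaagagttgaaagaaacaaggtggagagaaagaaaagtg
COL6A2: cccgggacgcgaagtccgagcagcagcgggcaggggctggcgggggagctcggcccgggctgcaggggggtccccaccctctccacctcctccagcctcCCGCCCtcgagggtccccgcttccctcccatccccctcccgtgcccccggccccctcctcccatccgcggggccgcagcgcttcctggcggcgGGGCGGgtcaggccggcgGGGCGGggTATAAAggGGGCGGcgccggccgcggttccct

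These windows differed among themselves. That of COL12A1 held 1 GC box and no TATAAA, and that of COL6A2 held 4 GC boxes and 1 TATAAA. The window of COL17A1 held 1 TATAAA, 1 CCAAT on the other strand and 1 interferon-stimulated response element core, and no GC box. Their G and C content was 61.2%, 40.4% and 79.6% for COL12A1, COL17A1 and COL6A2. Over 39 collagen windows, which covered 30 of the genes, TATAAA was in 6, CCAAT in 11, GGGCGG in 22, TGANTCA in 1 and the interferon-stimulated core in 1. Over all 35116 windows the shares were 6.80%, 32.0%, 42.6%, 6.57% and 3.02%. A match describes letters only. GGGCGG was also in the windows of COL5A1, called lower, and of COL7A1 and COL9A2, which did not pass. COL1A2, COL3A1, COL5A2 and COL6A1 were without an entry.

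Since USP39 is a splicing protein and collagen genes have many exons, the differences were also set beside exon number. Over the 24 tested collagens, the correlation between the number of exons and the log2 fold change was -0.158 by rank (Spearman) and -0.106 by Pearson, as a description across genes of the same libraries. The median log2 fold change was -0.20 in 13 tested collagens with over 50 exons, 0.24 in the 11 with 50 or fewer, and -0.07 in 96 other tested genes with over 50 exons. The 24 and the 13 include COL12A1 (66 exons) and COL1A2 (52), picked from earlier results, so these values support nothing. Whether exon number bears on the differences was not tested. Whether the transcripts of a gene shifted against each other could be tested in COL6A2 and COL18A1, which have 2 tested rows each. Neither passed edgeR's usage test (unadjusted p = 0.147 and 0.994, adjusted p = 0.991 and 1.00), where 2.03% of the 1628 genes tested did. Without pGIPZ-NC replicate 3 the unadjusted p of COL6A2 was 0.0240 (adjusted p = 0.654).

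Collagen also depends on proteins that modify, secrete, cut and cross-link its chains. A list of 60 such genes held 52 with a row, of which 36 were tested. By the same test 8 were higher, 10 lower and 18 did not pass, against 16.1% and 17.5% of all tested genes. Here too a gene could pass the filter through either group alone, so these counts are no support. The median log2 fold change of the tested genes was 0.08.

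Enzymes acting on proline and lysine in the endoplasmic reticulum differed in both directions. Of 7 proline hydroxylation genes, P4HB, the shared subunit of prolyl 4-hydroxylase, rose from 1696 ± 20.9 to 1946 ± 42.7 CPM (0.20, adjusted p = 2.61e-06). P3H3 and P3H4, of the prolyl 3-hydroxylase family, fell by 0.59 and 0.30 on the log2 scale (adjusted p = 8.24e-11 and 2.77e-06), and 4 genes did not pass. Of 3 lysine genes, the lysyl hydroxylase PLOD3 rose (0.21, adjusted p = 8.45e-05), while PLOD1 (-0.41, 0.338) and the galactosyltransferase COLGALT1 (-0.04, 0.454) did not pass.

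Folding and secretion genes that passed were lower, 3 of 5. The collagen chaperone FKBP10 was at 731, 767 and 799 CPM in pGIPZ-NC and 538, 565 and 551 in shUSP39, without overlap (-0.47, adjusted p = 3.02e-11). SEC23A, of the vesicle coat that carries procollagen, differed by -0.18 (adjusted p = 0.000578). MIA2, which helps to load large cargo at exit sites, had 18, 11 and 21 counts against 5, 2 and 3 (-2.29, adjusted p = 0.0133), and it passed in 8 of its 13 alternatives. MIA2 passed the filter on low counts through pGIPZ-NC, so its p-value is no support.

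Of 5 tested genes of propeptide removal, 3 were higher and 2 did not pass, and TLL1, of the same role, was below the filter with 43, 15 and 8 counts in pGIPZ-NC and 0, 5 and 3 in shUSP39. ADAMTS2, the protease that cuts the amino-terminal propeptide of types I and III, had 41, 49 and 21 counts in pGIPZ-NC and 246, 242 and 201 in shUSP39. All shUSP39 libraries stood well above the controls, at 6.25-fold (2.64, SE 0.23, adjusted p = 5.25e-10), and the gene passed under all 14 alternatives. The related ADAMTS3 had 3, 8 and 13 counts against 20, 28 and 26 (1.60, adjusted p = 0.0383) and passed in 7 of 13, at 2.21 without pGIPZ-NC replicate 3. ADAMTS3 passed the filter on low counts through shUSP39, so its p-value is no support. PCOLCE2, an enhancer of carboxy-terminal cutting, rose by a small amount (0.21, adjusted p = 0.00556).

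LOX, the oxidase that starts the cross-linking of collagen and elastin, was the abundant gene of its role and was lower. It stood at 1039, 1133 and 1076 CPM in pGIPZ-NC and at 706, 735 and 742 CPM in shUSP39, with no overlap (-0.57, SE 0.034, adjusted p = 3.32e-13). Its relatives LOXL3 (0.51, adjusted p = 0.187) and LOXL2 (-0.02, 0.734) did not pass.

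Among 4 tested genes that organise fibrils, LUM and DCN were lower and TNXB was higher. LUM encodes lumican, a small proteoglycan on fibrils, and had 176, 170 and 97 counts in pGIPZ-NC and 16, 3 and 16 in shUSP39. The groups did not overlap, and the level was 12.4 times as high in pGIPZ-NC (-3.63, SE 0.36, adjusted p = 7.34e-09). DCN encodes decorin, of the same family, and had 31, 22 and 49 counts against 0, 1 and 6 (-3.81, SE 0.74, adjusted p = 0.000191). Its value was -3.22 without shUSP39 replicate 1 and -5.81 without shUSP39 replicate 3, and it passed in the 13 alternatives that tested it. LUM and DCN passed the filter on low counts through pGIPZ-NC, and requiring at least 10 counts in every library left both out. Their p-values are thus no support. TNXB had 7, 3 and 9 counts against 13, 61 and 27, again most in shUSP39 replicates 2 and 3 (2.39, adjusted p = 0.00348). It no longer passed without shUSP39 replicate 2 (1.64, adjusted p = 0.112) or with shUSP39 replicate 1 alone (0.95, adjusted p = 0.646). TNXB passed the filter on low counts through shUSP39, so its p-value is no support. It also has a near-identical partial copy in the genome, so its reads are uncertain.

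LUM and DCN are also fibroblast markers, so the whole marker list was read. Of 8 fibroblast and stroma markers 6 had a row, and their summed level was 12.6 to 14.1 CPM in pGIPZ-NC and 10.8 to 13.1 CPM in shUSP39. PDGFRA and FAP were at 0 in all pGIPZ-NC libraries and at no more than 6 counts in shUSP39. THY1, another of the list, was higher in shUSP39 (0.68, adjusted p = 0.000475), and PDGFRB did not pass. Of 7 ovarian carcinoma markers 6 had a row, with a sum of 22.2 to 25.4 CPM in pGIPZ-NC and 32.6 to 39.5 CPM in shUSP39, most of it KRT18. KRT18 was higher in shUSP39 without overlap (0.56, edgeR adjusted p = 1.51e-05). PAX8 and EPCAM had no more than 6 counts in any library and KRT7 no more than 16. KRT8 had 28, 37 and 26 counts in pGIPZ-NC and 3, 0 and 0 in shUSP39 (adjusted p = 4.13e-05). It passed the filter on low counts through pGIPZ-NC, so its p-value is no support. MUC16, below the filter, had 5, 1 and 1 counts against 6, 150 and 71, most in shUSP39 replicates 2 and 3. The 4 leukocyte markers summed to 9.08 to 11.9 and 11 to 12.1 CPM, nearly all from CD68, and the 3 endothelial markers to 0.354 to 0.439 and 0.406 to 1.73 CPM.

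Of 4 tested collagen receptors, 1 passed. ITGB1, the shared beta chain of collagen-binding integrins, was at 105 ± 2.97 CPM in pGIPZ-NC and 94.4 ± 2.57 with shUSP39 (-0.16, adjusted p = 0.0188), and it passed in 10 of 14 alternatives. ITGA10, an alpha chain, and DDR2, a receptor kinase for fibrillar collagen, did not pass (0.53, SE 0.65, adjusted p = 0.576, and 0.22, SE 0.54, adjusted p = 0.798).

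Of 5 genes of collagen breakdown, 2 were higher and 1 was lower. MMP1, the interstitial collagenase that cuts types I and III, was at 114, 101 and 111 CPM in pGIPZ-NC and at 419, 391 and 419 CPM in shUSP39. The libraries were far apart, at 3.76-fold (1.91, SE 0.046, adjusted p = 1.47e-21), and the gene passed under all 14 alternatives. MMP14, a membrane-bound collagenase, had 69, 42 and 90 counts against 146, 120 and 99 (0.84, adjusted p = 0.0147), and passed in 12 of 14. MRC2, the receptor that takes up collagen fragments, was lower at -0.35 (adjusted p = 3.87e-06).

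**Figure D5:**
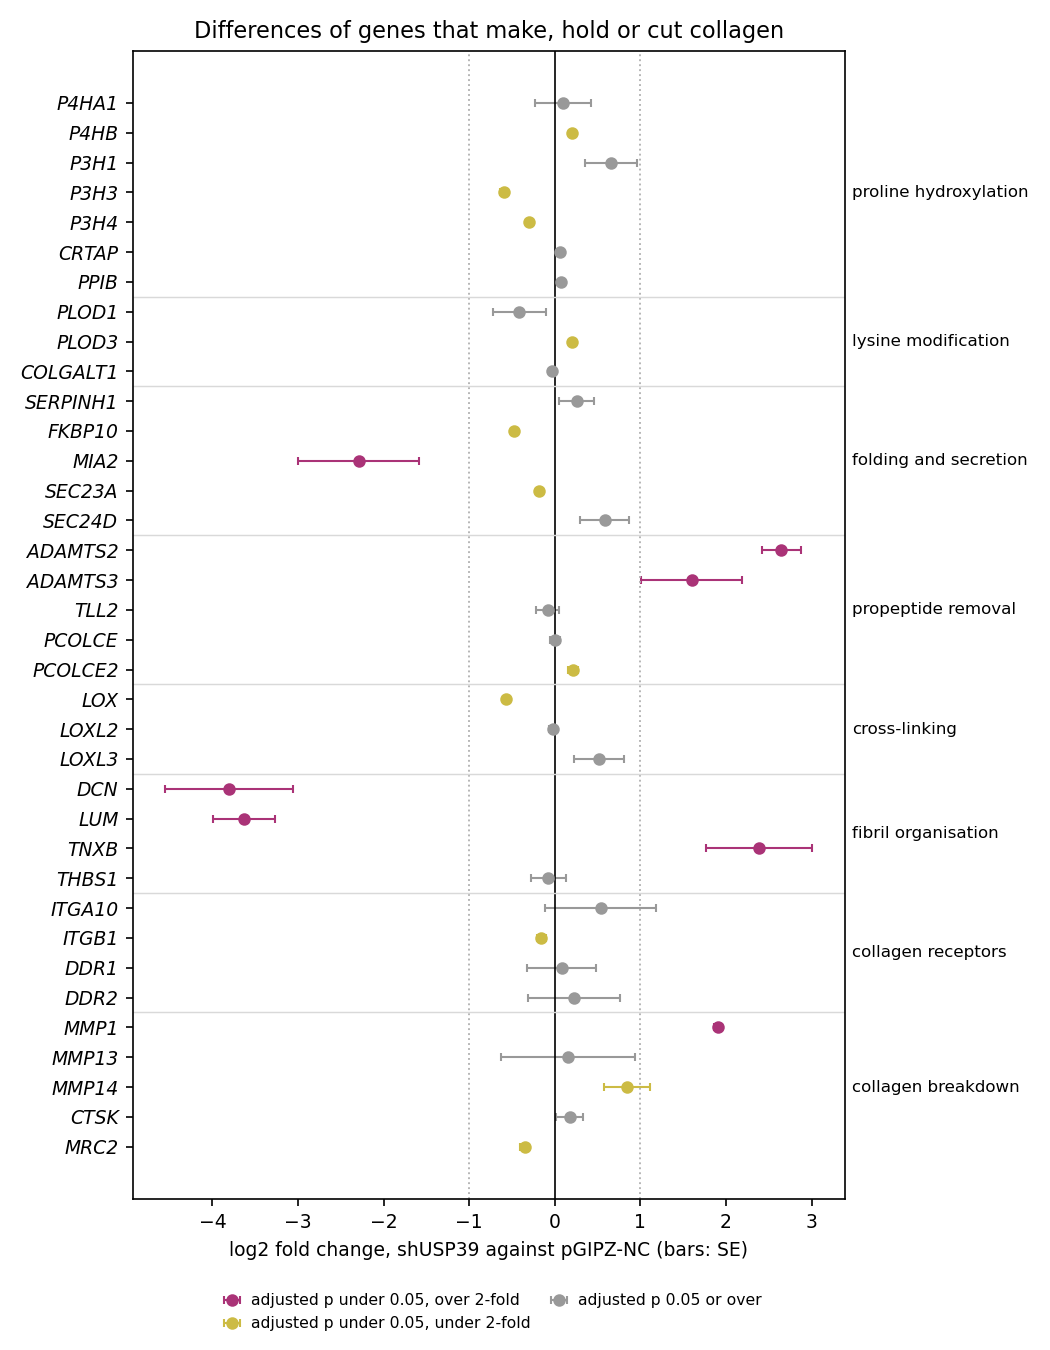
Log2 fold change (shUSP39 against pGIPZ-NC) of 36 tested genes that make, hold or cut collagen, with its SE as a bar and dotted lines at 2-fold, grouped by role. ADAMTS2 at 2.64 and MMP1 at 1.91 lie to the right, LUM at -3.63 and DCN at -3.81 to the left, and P4HB, CRTAP and PPIB lie near 0.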

How the data were processed

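Per the labels, total RNA of A2780 cells was extracted and sequenced with 3 libraries per group. The authors deposited 1 table of raw read counts per RefSeq messenger RNA for each library. The submitters' processing notes name HISAT2, Cufflinks and hg19, with no roles or versions. The counter is not given in the sources used here. The table also holds the authors' group means, fold, p-values and q-values, which were not used. Reads shared by transcripts of a gene may be left out of the counts.

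Counts were summed per symbol (46 of 47 symbols in date form were replaced through their transcript). Genes were tested with edgeR 4.0.16 in R 4.3.3 (filterByExpr, TMM, robust quasi-likelihood, the group as the only term, Benjamini-Hochberg over all tested genes) and called at an adjusted p under 0.05 and beyond 2-fold. The biological coefficient of variation was 7.59%. CPM used TMM-scaled totals. Transcript usage was tested with diffSpliceDGE. The SE was the log2 fold change over the square root of F. Alternatives were DESeq2 1.42.0 (size factors, Wald test), upper-quartile scaling, other filters, the highest transcript, a replicate block and libraries left out. Genes with 13 alternatives were not tested where at least 10 counts were required in every library. Exons, coordinates and lengths (longest coding transcript) are from GENCODE 44 lifted to GRCh37.

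Members and lists were chosen with earlier results of these data known. Named were all tested collagens, those below the filter with at least 10 counts in a library, and the 3 genes of each role with the smallest adjusted p. Genes named outside this rule were chosen after their values were seen.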

Additional observations from a re-analysis of the deposited data

How the results depend on the processing

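Called genes numbered 728, and 471 where at least 10 counts were required in every library, which tested fewer genes, and 1226 at a 1.5-fold limit. With each library left out in turn they numbered 677 to 836. Without COL12A1 and COL1A2, collagen genes called numbered 5 and ranged from 4 to 7 over the 14 refits, and those past the adjusted p numbered 10 and ranged from 8 to 12. COL17A1, COL6A1, COL6A2 and COL14A1 were called under each of the 14 alternatives. Genes that did not pass changed sign in places. With libraries left out in turn, COL24A1 ranged from -0.998 to 0.99 (log2 fold change), COL4A2 from -0.29 to 0.20, COL6A3 from -0.23 to 0.26, COL7A1 from -0.15 to 0.39 and COL9A2 from -0.33 to 0.42. Under upper-quartile scaling COL4A2 was at 0.016 and COL9A2 at 0.022. With shUSP39 replicate 1 alone against pGIPZ-NC, COL4A3 was at -0.995, COL4A5 at 0.16 and COL6A3 at -0.19, a lone library being assumed to vary like the others. The cause was not tested. Samples with the same replicate number deviated together little if at all (correlations of 0.0688, 0.00477 and 0.0216). The value for replicate 1 was the largest over all pairs across the groups, while shUSP39 replicates 2 and 3 correlated best with other numbers. Values this small, from 3 libraries per group, cannot settle whether the numbers pair the libraries. With the replicate block, 745 genes, 7 of these collagens among them, were called, and COL6A6 passed (1.51, adjusted p = 0.0493). The 11 collagens and 19 pathway genes past the adjusted p under the block stood against 10 and 18 without it, and no collagen usage call was made. Tested network chains had only 4 to 26 counts per library, which limits what could be detected there.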

Other observations

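Some genes of the collagen-modifying list lay below the filter on low counts and were chosen here after their values were seen. PLOD2, the lysyl hydroxylase that acts on the ends of collagen chains, had 4, 3 and 17 counts in pGIPZ-NC and 0 in all shUSP39 libraries. MIA3, which loads procollagen at exit sites, had 4, 3 and 5 counts in pGIPZ-NC and 9, 14 and 12 in shUSP39. ITGA1, an alpha chain of a collagen-binding integrin, had 4, 1 and 5 counts against 7, 8 and 9. The groups did not overlap in these genes, and none was tested. Other genes of the list below the filter also did not overlap, BGN, MMP2 and TLL1 being lower in shUSP39 and LOXL1 higher. The remaining genes of the list below the filter overlapped. Of all tested genes, 21.7% were higher and 22.5% lower without overlap, but these shares cover only genes above the filter. The share among genes below it was not computed, so these cases are no support.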
